A study of Mus musculus with 20 samples.

Results

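The 34 genes described here encode the enzymes and the choline carrier through which liver handles methionine, choline and one-carbon units, the nutrients that the methionine- and choline-deficient (MCD) diet removes or draws on. They were chosen by name, from the methionine cycle, methyl transfer, transsulfuration, choline and phosphatidylcholine metabolism and folate, and all 34 were present among the 54325 genes of each deposited table. All 34 had enough reads to be tested on both diets.

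Methionine is converted to S-adenosylmethionine, the methyl donor of most cellular methylation, and the homocysteine that remains is either remethylated to methionine or passed through cystathionine to cysteine and taurine. Choline enters the same network by a pair of routes. It is phosphorylated and built into phosphatidylcholine, the main membrane and lipoprotein phospholipid, or oxidised to betaine, whose methyl group remethylates homocysteine. Liver carries out most of the body's methionine metabolism, and a lack of both nutrients limits the export of fat from hepatocytes.

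Liver RNA came from C57BL/6 mice in 4 groups. They were fed regular chow, labelled healthy, or the MCD diet, labelled as non-alcoholic steatohepatitis (NASH), and on each diet received either control IgG (Bioxcell) or an antibody (Fred Hutch) that neutralizes ACBP, the acyl-CoA binding protein encoded by Dbi. The labels list 5 samples per group, and sex, age, dose and duration are not given in the sources used here. All groups share the strain and the tissue, and the labels list no genetic change.

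Each table holds the mean normalized count (read count divided by a size factor) of the IgG and of the anti-ACBP group on 1 diet, a log2 fold change of anti-ACBP against IgG, the standard error (SE) of that value, and an adjusted p-value. All group means and all antibody effects with their SEs and adjusted p-values come from the authors' deposited tables, except that adjusted p-values under 0.001 were recomputed from the fold change and SE by the same normal test. A gene rose or fell where its adjusted p was under 0.05. Values of single livers were not used here, so no SD or overlap of groups is given. The MCD means rest on 5 libraries per group and the chow means on 4, fewer than the 5 that the labels list, as read from the values that genes with a single read take. Group columns sum to between 34621779 and 39398190 normalized counts. Dbi itself stood at 13686 and 23709 with IgG and anti-ACBP on MCD and at 24312 and 24526 on chow.

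The tissue label was checked against marker genes. In counts per 1000000 of a column (CPM), hepatocyte markers summed to 95039 CPM with IgG and 115353 with anti-ACBP on MCD, and to 87602 CPM with IgG and 102992 with anti-ACBP on chow. Macrophage markers summed to 788 CPM with IgG and 227 with anti-ACBP on MCD and to 189 CPM with IgG and 178 with anti-ACBP on chow. Those of stellate cells and fibroblasts summed to 670.3 CPM with IgG and 289.7 with anti-ACBP on MCD and to 140.2 CPM with IgG and 161 with anti-ACBP on chow. Of 11 hepatocyte markers 9 rose on MCD and 0 fell, 8 of 12 macrophage markers fell and 1 rose, and 10 of 10 stellate cell and fibroblast markers fell. All 5 red blood cell markers rose on MCD, where they summed to 326 CPM with IgG and 529 with anti-ACBP, and 2 of 6 cholangiocyte markers fell. On chow 2 of 11 hepatocyte markers fell and 0 rose, with a median log2 fold change of -0.16. The higher hepatocyte sum there includes Alb, the most abundant marker, which did not pass (0.24 ± 0.11, adjusted p = 0.151). Of 11 macrophage markers 0 fell and 0 rose on chow, and of 10 stellate cell and fibroblast markers 3 fell and 1 rose. Among red blood cell and cholangiocyte markers, 1 of 5 in each list fell on chow and 0 rose. The part of these cell types in the results on MCD was not tested, and fewer cells of a type cannot be told apart from less RNA per cell.

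Promoter sequence was taken from RefSeq on GRCm38.p6, as windows from 250 bases before to 50 bases after a gene's start, for 28 of the 34 members. The deposited counts were made on mm39, so these coordinates belong to the reference windows and not to the tables. The windows of Bhmt and Chka are shown because these genes had the largest falls on both diets. In each, capitals mark CCAAT, the CCAAT box, or GGGCGG, the GC box, on either strand. The third window is shown because it holds the starts of both Bhmt2 and Dmgdh, neighbours of Bhmt on chromosome 13 that are read in opposite directions. There, capitals mark the stretch from the first base of Bhmt2 to the first base of Dmgdh.
Bhmt promoter, chr13:93637709-93638008, minus strand: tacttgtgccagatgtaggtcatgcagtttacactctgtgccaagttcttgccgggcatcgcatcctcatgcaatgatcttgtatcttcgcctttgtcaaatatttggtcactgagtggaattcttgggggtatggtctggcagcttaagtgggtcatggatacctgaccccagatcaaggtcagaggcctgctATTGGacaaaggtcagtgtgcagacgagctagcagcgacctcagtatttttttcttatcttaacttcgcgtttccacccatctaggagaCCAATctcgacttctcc
Chka promoter, chr19:3851523-3851822, plus strand: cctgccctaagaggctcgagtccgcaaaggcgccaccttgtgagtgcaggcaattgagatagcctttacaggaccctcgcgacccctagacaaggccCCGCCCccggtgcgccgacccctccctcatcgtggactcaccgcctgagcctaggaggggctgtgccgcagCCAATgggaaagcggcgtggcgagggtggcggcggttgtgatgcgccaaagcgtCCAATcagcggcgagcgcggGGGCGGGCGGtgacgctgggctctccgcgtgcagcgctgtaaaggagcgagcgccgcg
Bhmt2 and Dmgdh starts, chr13:93674186-93674485, plus strand: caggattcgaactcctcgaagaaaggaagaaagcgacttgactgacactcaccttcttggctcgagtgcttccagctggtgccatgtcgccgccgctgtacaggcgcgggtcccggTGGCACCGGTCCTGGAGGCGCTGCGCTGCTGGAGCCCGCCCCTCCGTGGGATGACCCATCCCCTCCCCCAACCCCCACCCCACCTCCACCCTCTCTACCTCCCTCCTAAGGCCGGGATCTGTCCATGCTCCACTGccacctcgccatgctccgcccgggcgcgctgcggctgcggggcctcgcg

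Bhmt held CCAAT starting 56 bases before its start and again at base 34 of the transcript, and no GC box. Chka held CCAAT at 82 and 28 bases before its start and GGGCGG at 153, 8 and 4 bases before it, the last pair overlapping each other. The starts of Bhmt2 and Dmgdh lie 134 bases apart, and the stretch between them is 69.6% G and C, against a median of 52.7% over all 32851 promoter windows. CCAAT was found for 16 of the 28 matched members, in 17 of their 40 windows, and in 37.4% of all windows. GGGCGG was found for 23 of 28 members, in 28 of their 40 windows, and in 35.7% of all windows. All motifs were read on both strands, overlaps included. The E-box CACGTG was found in the Cbs window alone among members (7.15% of all windows), and the amino acid response sequence TGATGCAA in no member's window (0.895% of all windows). The cyclic AMP response element TGACGTCA was found for 1 member (1.79% of all windows), the antioxidant response core TGACNNNGC for 3 (12.4%) and the TATA box TATAAA for 3 (13.6%). Members with several starts had several windows, so the counts of members and the shares of windows are not on the same base.

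The first question is what the neutralizing antibody changed among these genes on each diet. On MCD, 8 of 34 members rose (23.5%, against 14.7% of the 20265 genes tested) and 5 fell (14.7%, against 16.2%). On chow, 5 rose (14.7%, against 5.58% of 14618 genes) and 7 fell (20.6%, against 6.46%). The median log2 fold change of the members was 0.061 on MCD and -0.061 on chow, and that of all genes tested was 0.018 and 0.0042. Bhmt, Bhmt2, Dmgdh and Chka fell on both diets, 4 of 34 members against 1.59% of the 14607 genes tested in both tables, and Ahcy rose on both. A further 8 members changed on MCD and not on chow, 7 on chow and not on MCD, and 14 on neither. The shares of all genes called on 1 diet alone are not given, and such a call is not itself a difference between diets. Of the 7 on chow alone, Nnmt, Chkb and Pcyt1a did not pass the test of that difference, described below (adjusted p = 0.217, 0.475 and 0.401). The other members called on 1 diet alone passed it. The genes tested reach down to means of 2.49 (MCD) and 12.9 (chow) normalized counts, while 33 of 34 members had at least 5 CPM on both diets. The shares of members were thus not set against genes of like expression. The members were also chosen with earlier results of these data known, so their shares are not an independent test.

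**Figure D1:**
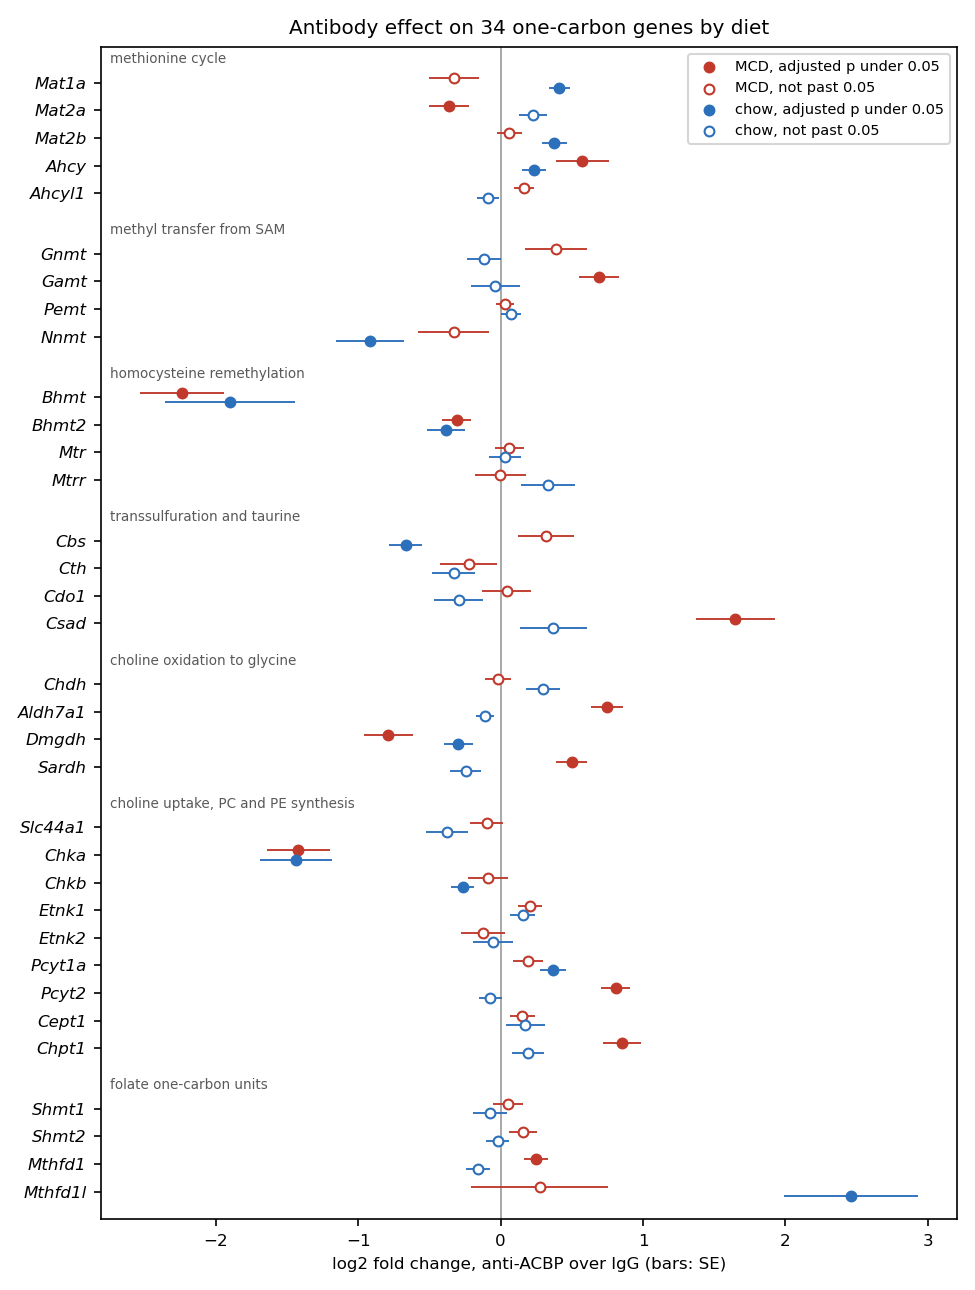
Log2 fold change of anti-ACBP over IgG (horizontal axis) for the 34 members, grouped by role, on MCD (red) and chow (blue). Points are the authors' estimates, bars are SEs, and filled points have an adjusted p under 0.05. Bhmt and Chka lie far to the left on both diets, Csad lies to the right on MCD, and Mthfd1l on chow.

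Whether the antibody effect differed between diets was tested as the difference of both fold changes, MCD minus chow. It passed for 12 of 34 members, against 23.2% of all genes. The effect was higher on MCD for Gamt, Cbs, Csad, Aldh7a1, Sardh, Pcyt2, Chpt1 and Mthfd1, and lower on MCD for Mat1a, Mat2a, Mat2b and Mthfd1l. Scaling by column totals instead of the authors' size factors shifted every fold change by -0.19 on MCD and by 0.14 on chow. On that scale the members split into 6 higher and 7 lower on MCD, 10 higher and 4 lower on chow, and 5 higher and 9 lower in the difference. The split of all genes shifted likewise, to 1398 higher and 5468 lower on MCD, 2605 and 533 on chow, and 717 and 4721 in the difference. With the authors' size factors they split into 2973 and 3288, 816 and 945, and 1847 and 1547. A t distribution with 6 degrees of freedom, which treats each SE as if it came from the gene's own libraries alone, left 0 members and 0 of all genes called on chow, with 14 members and 2238 genes at an unadjusted p under 0.05.

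Some calls rested on the settings. With column totals Ahcy and Mthfd1 no longer passed on MCD, Bhmt2, Chkb and Dmgdh no longer passed on chow, and Chpt1, Gamt and Mthfd1 no longer differed between diets. On that scale Mat1a and Slc44a1 passed as lower on MCD, and Chdh, Chpt1, Etnk1, Mat2a and Pemt as higher on chow, while Chdh, Dmgdh, Mtrr, Pcyt1a and Pemt passed in the difference as lower on MCD. With a t distribution of 8 degrees of freedom, Ahcy, Bhmt2, Mat2a and Mthfd1 no longer passed on MCD. Without the filter on low values, Mat2a no longer passed on MCD, Ahcy, Bhmt2 and Dmgdh no longer passed on chow, and Mat2b no longer differed between diets.

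Of 4 homocysteine remethylation genes, Bhmt and Bhmt2 fell on both diets and the methionine synthase genes Mtr and Mtrr passed on neither. Bhmt encodes betaine-homocysteine methyltransferase, which makes methionine from homocysteine and the methyl group of betaine. The authors' deposited tables give it 184863 normalized counts in MCD IgG, 39261 in MCD anti-ACBP, 77954 in chow IgG and 20881 in chow anti-ACBP. MCD IgG was the highest group and chow anti-ACBP the lowest. The fall was 4.71-fold on MCD, a log2 fold change of -2.24 ± 0.30 (SE, adjusted p = 1.75e-12), and 3.73-fold on chow (-1.90 ± 0.46, adjusted p = 0.000901). The effects differed between diets by -0.33 ± 0.54 (95% interval -1.40 to 0.73, adjusted p = 0.718), with no difference detected at this precision.

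Bhmt2, which remethylates homocysteine with S-methylmethionine, also fell. Its means were 8262 and 6670 normalized counts with IgG and anti-ACBP on MCD, and 5841 and 4484 on chow. The log2 fold change was -0.31 ± 0.10 on MCD (adjusted p = 0.00938) and -0.38 ± 0.13 on chow (adjusted p = 0.0373). Per kilobase of exon, the level of Bhmt2 was 10.4% of that of Bhmt with IgG and 39.7% with anti-ACBP on MCD, and 17.5% and 50.1% on chow. Mtr, the cobalamin-dependent methionine synthase that takes its methyl group from folate, stood at 523 and 546 normalized counts on MCD and at 402 and 411 on chow. Mtrr, which reactivates methionine synthase, had log2 fold changes of -0.0028 ± 0.18 on MCD and 0.33 ± 0.19 on chow (adjusted p = 0.285).

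Dmgdh, next to Bhmt2 and sharing the start region printed above, encodes the dehydrogenase that takes a methyl group off dimethylglycine, the product of the betaine reaction. It fell on both diets, from 29187 to 16905 normalized counts on MCD (-0.79 ± 0.17, adjusted p = 5.49e-05) and from 14666 to 11947 on chow (-0.30 ± 0.10, adjusted p = 0.0391). The difference between diets did not pass (-0.49 ± 0.20, adjusted p = 0.0608). The 3 neighbours thus all fell on both diets, though the calls of Bhmt2 and Dmgdh on chow and of Bhmt2 on MCD rested on the settings, as given above. None of the nearby coding genes Homer1, Jmy and Arsb, named after their values were seen, was called lower. Homer1 and Jmy on the Bhmt side had log2 fold changes of 0.48 ± 0.15 and 0.13 ± 0.15 on MCD, and Arsb, next to Dmgdh, 0.31 ± 0.084. Homer1 and Arsb rose there (adjusted p = 0.00777 and 0.00155). On chow Homer1, Jmy and Arsb had values of 0.26 ± 0.14, -0.093 ± 0.088 and -0.066 ± 0.095, none of which passed. Values of Gm6109, annotated as a coding gene between Jmy and Bhmt, are not given here.

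**Figure D2:**
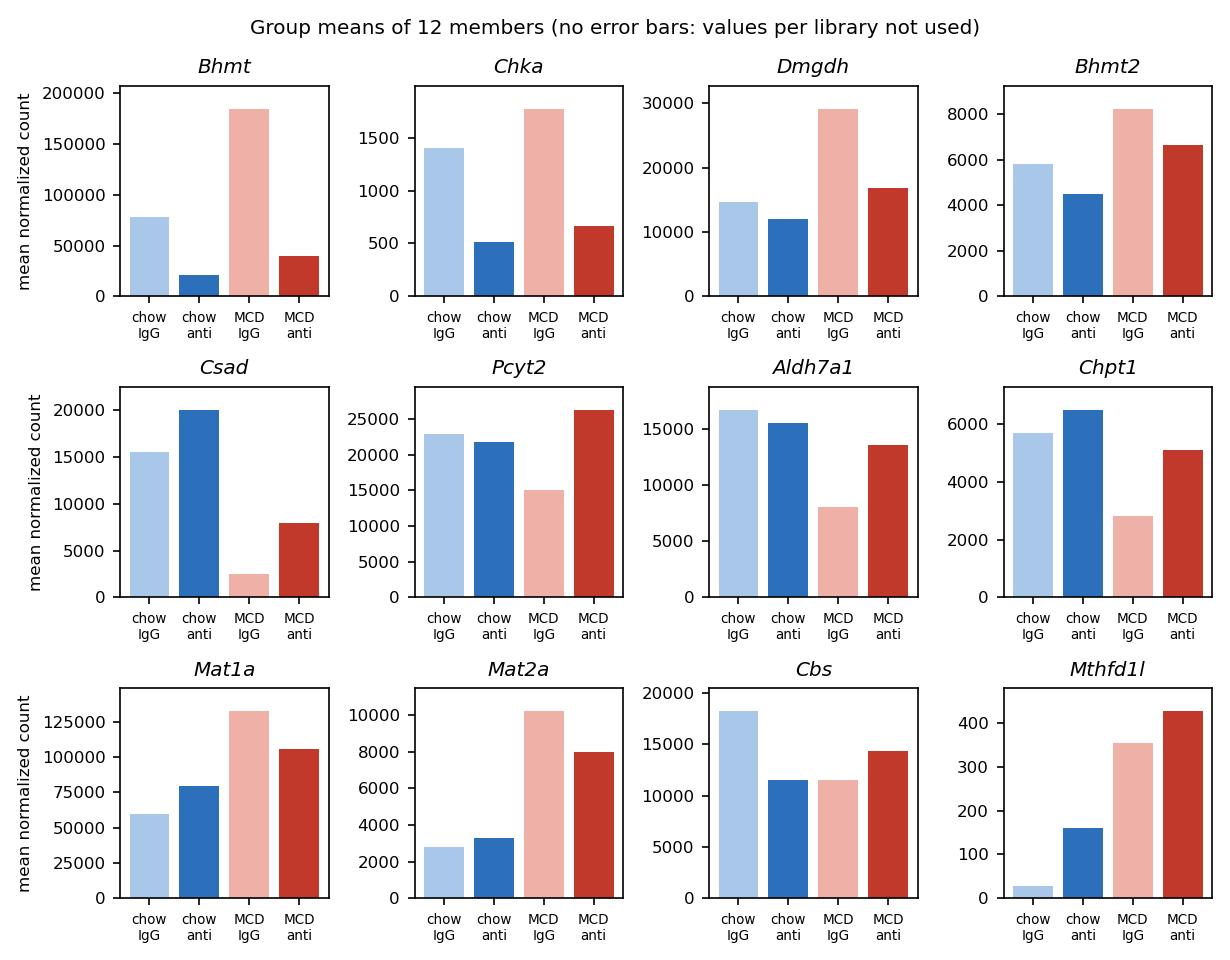
Mean normalized count (vertical axis, each panel from 0) of 12 members in the chow IgG, chow anti-ACBP, MCD IgG and MCD anti-ACBP groups. Bars are the authors' group means, and each diet was scaled in its own table. Bhmt and Chka are lower with anti-ACBP on both diets, while Pcyt2, Aldh7a1 and Csad are lowest in MCD IgG.

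Choline kinase alpha transcripts fell on both diets. Chka phosphorylates choline, the first step towards phosphatidylcholine. It averaged 1776 normalized counts with IgG and 663 with anti-ACBP on MCD, and 1400.3 with IgG and 516 with anti-ACBP on chow. Both anti-ACBP groups were below both IgG groups. The fall was 2.68-fold on MCD (-1.42 ± 0.22, adjusted p = 3.88e-09) and 2.71-fold on chow (-1.44 ± 0.25, adjusted p = 1.13e-06), a difference of 0.019 ± 0.34 (95% interval -0.64 to 0.68). The isoenzyme Chkb stood at 2139 and 2012 on MCD, without passing (-0.089 ± 0.14), and fell on chow from 1968 to 1636 (-0.27 ± 0.079, adjusted p = 0.0105). In GENCODE M21, 50.7% of the exonic bases of Chkb also belong to Gm44502 on the same strand, so its count is uncertain.

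Downstream of the kinases, Pcyt2 and Chpt1 rose on MCD and Pcyt1a rose on chow. Pcyt2, which makes CDP-ethanolamine for phosphatidylethanolamine, went from 15046 to 26346 normalized counts there, 1.75-fold (0.81 ± 0.10, adjusted p = 3.72e-13). On chow it stood at 22873 and 21761 (-0.072 ± 0.079, not passing), and the effects differed by 0.88 ± 0.13 (adjusted p = 1.16e-09). Chpt1, the cholinephosphotransferase that completes phosphatidylcholine, rose from 2828 to 5102 on MCD (0.85 ± 0.14, adjusted p = 6.62e-09). On chow it stood at 5698 and 6509 and did not pass (0.19 ± 0.11, difference 0.66 ± 0.17, adjusted p = 0.00163). Pcyt1a, whose product makes CDP-choline in the step that limits this route, rose on chow from 2294 to 2957 (0.37 ± 0.093, adjusted p = 0.00183) and did not pass on MCD (0.19 ± 0.10). The difference between diets did not pass (-0.17 ± 0.14, adjusted p = 0.401).

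The other 4 genes of this route passed on neither diet. Slc44a1, a choline carrier of the plasma membrane, stood at 847 and 792 on MCD and at 1096 and 845 on chow (adjusted p = 0.0687 on chow). Etnk1, an ethanolamine kinase, was just short of the threshold on MCD (0.21 ± 0.086, adjusted p = 0.0502) and had 0.16 ± 0.087 on chow. Etnk2, the related kinase, had log2 fold changes of -0.12 ± 0.15 and -0.051 ± 0.14 on MCD and chow. Its level per kilobase of exon was 21 times that of Etnk1 in MCD IgG and 13.4 times in chow IgG. These ratios depend on the annotated exon lengths, 4566 bases for Etnk2 and 14151 for Etnk1. As normalized counts, Etnk2 stood at 14775 and Etnk1 at 2185 in MCD IgG. Cept1, which transfers both choline and ethanolamine phosphate, had 0.15 ± 0.09 and 0.17 ± 0.14, and 24.7% of its exonic bases lie opposite Dennd2d.

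Among the methionine adenosyltransferase genes, whose products make S-adenosylmethionine, Mat1a and Mat2b rose on chow and Mat2a fell on MCD. Mat1a, the catalytic subunit of adult liver, rose on chow from 59906 to 79757 normalized counts (0.41 ± 0.076, adjusted p = 4.22e-06). On MCD it stood at 133060 with IgG and 106077 with anti-ACBP and did not pass (-0.33 ± 0.18, adjusted p = 0.154). The antibody effects differed by -0.74 ± 0.19 (adjusted p = 0.00127). Mat2a, the catalytic subunit of most other tissues, fell on MCD from 10234 to 7972 (-0.36 ± 0.14, adjusted p = 0.036). On chow it stood at 2810.1 and 3291 and did not pass (0.23 ± 0.097, difference -0.59 ± 0.17, adjusted p = 0.00477). In GENCODE 11.3% of its exonic bases lie opposite Particl.

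Mat2b, the regulatory subunit that binds the Mat2a product, rose on chow from 817 to 1059.7 (0.38 ± 0.088, adjusted p = 0.000579) and stood at 1337 and 1394 on MCD (0.061 ± 0.088). Its difference between diets was close to the threshold (-0.32 ± 0.12, adjusted p = 0.049). Per kilobase of exon, Mat2a was at 5.95% of the level of Mat1a with IgG and 5.81% with anti-ACBP on MCD, against 3.63% and 3.19% on chow. Mat1a was thus the more abundant transcript in all 4 groups. Ahcy encodes the hydrolase that clears S-adenosylhomocysteine, the product and inhibitor of methyl transfer. It rose from 43046 to 64082 on MCD (0.57 ± 0.19, adjusted p = 0.00889) and from 59881 to 70396 on chow (0.23 ± 0.084, adjusted p = 0.0475). Ahcyl1, a relative of Ahcy that binds the inositol trisphosphate receptor, did not pass (0.17 ± 0.072 on MCD, adjusted p = 0.0625, and -0.089 ± 0.077 on chow).

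Of 4 methyltransferases that use S-adenosylmethionine, 1 rose on MCD and 1 fell on chow. Gamt, which completes creatine, rose from 3637 to 5871 normalized counts on MCD (0.69 ± 0.14, adjusted p = 7.71e-06). On chow it stood at 4404 and 4295 (-0.036 ± 0.17). The effects differed by 0.73 ± 0.22 (adjusted p = 0.00764). Nnmt, which methylates nicotinamide, fell on chow from 2632 to 1392 (-0.92 ± 0.24, adjusted p = 0.00254). On MCD its means were 2458 and 1958 and it did not pass (-0.33 ± 0.25), and the difference between diets did not pass either (0.59 ± 0.34, adjusted p = 0.217).

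Gnmt, the abundant liver enzyme that methylates glycine and so disposes of surplus S-adenosylmethionine, did not pass. It stood at 23833 and 31187 on MCD (0.39 ± 0.22, adjusted p = 0.171) and at 39121 and 36114 on chow (-0.12 ± 0.12). Pemt, which makes phosphatidylcholine by methylating phosphatidylethanolamine, was at 12527 and 12792 on MCD and 9109 and 9593 on chow. Its log2 fold changes, 0.03 ± 0.066 and 0.075 ± 0.071, were among the most precise of the list and did not pass.

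Of 4 transsulfuration and taurine genes, the first, Cbs, fell on chow and the last, Csad, rose on MCD. Cbs, cystathionine beta-synthase, commits homocysteine to cysteine. It fell on chow from 18293 to 11524 normalized counts, 1.59-fold (-0.67 ± 0.12, adjusted p = 1.69e-06). On MCD it stood at 11515 with IgG and at 14355 with anti-ACBP and did not pass (0.32 ± 0.20, adjusted p = 0.224). The antibody effects differed by 0.98 ± 0.23 (adjusted p = 0.000246). Csad makes hypotaurine, the precursor of taurine. It rose on MCD 3.13-fold, from 2544 to 7976 (1.65 ± 0.28, adjusted p = 4.28e-08). Both values lay below the chow groups, at 15530.4 and 20091. On chow it did not pass (0.37 ± 0.23, adjusted p = 0.34), and the difference was 1.28 ± 0.36 (adjusted p = 0.00368).

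Cth, which cleaves cystathionine to cysteine, and Cdo1, which oxidises cysteine on the way to taurine, passed on neither diet. Cth stood at 13179.6 and 11282 on MCD and at 10945 and 8709 on chow, with log2 fold changes of -0.22 ± 0.20 and -0.33 ± 0.15. Cdo1 stood at 36719 and 37858 on MCD and at 42989 and 35091 on chow (0.044 ± 0.17 and -0.29 ± 0.17).

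Of the other choline oxidation genes, Aldh7a1 and Sardh rose on MCD while Dmgdh, above, fell. Aldh7a1, an aldehyde dehydrogenase whose human form makes betaine from betaine aldehyde, rose from 8055 to 13548 normalized counts (0.75 ± 0.11, adjusted p = 8.77e-10). On chow it stood at 16711 and 15483 (-0.11 ± 0.064), and the effects differed by 0.86 ± 0.13 (adjusted p = 2.50e-09). Sardh, which demethylates sarcosine to glycine in the step after Dmgdh, rose from 20192 to 28574 (0.50 ± 0.11, adjusted p = 4.69e-05). On chow its means were 28514 and 24059.9 and it did not pass (-0.25 ± 0.11, difference 0.75 ± 0.15, adjusted p = 2.95e-05). Chdh, which starts the route by oxidising choline, was at 8573 and 8470.1 on MCD (-0.017 ± 0.089) and at 6865 and 8439 on chow (0.30 ± 0.12, adjusted p = 0.0796).

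Of 4 folate enzymes, Mthfd1l rose on chow and Mthfd1 on MCD. Mthfd1l releases formate from mitochondria for use in the cytosol. It rose on chow 5.5-fold, from 29.1 to 160.3 normalized counts (2.46 ± 0.47, adjusted p = 1.25e-05), from the lowest level of any member. On MCD it stood at 354 and 428, above both chow groups, with a wide error (0.27 ± 0.48, adjusted p = 0.724). The effects on MCD and chow differed by -2.19 ± 0.68 (adjusted p = 0.00858). A filter at a mean of 100 normalized counts leaves Mthfd1l out on chow. Mthfd1, the cytosolic enzyme that takes up formate and interconverts folate forms, rose on MCD from 6606 to 7850.2 (0.25 ± 0.086, adjusted p = 0.0161). On chow it stood at 7547 and 6774 (-0.16 ± 0.084, difference 0.40 ± 0.12, adjusted p = 0.00596).

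Shmt1 and Shmt2, the cytosolic and mitochondrial enzymes that move a carbon from serine to folate, passed on neither diet. Their log2 fold changes were 0.051 ± 0.11 and 0.16 ± 0.096 on MCD and -0.074 ± 0.12 and -0.019 ± 0.08 on chow. Per kilobase of exon the level of Shmt1 lay between 44.8% and 57.7% of that of Shmt2 in the 4 groups. The level of Mthfd1l per kilobase was 5.36% of that of Mthfd1 in MCD IgG and 0.386% in chow IgG.

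The second question is how these genes stood on MCD against chow. The tables were scaled separately and no test was made, so log2 ratios of the group means are given, centred on their median over the 9098 genes with at least 5 CPM in both tables. All members but Mthfd1l met that minimum. Under IgG, 2 of 33 members were higher by 2-fold or more on MCD, against 4.47% of genes, and 3 were lower, against 4.39%. The 2 higher were Mat2a, 3.08-fold, and Bhmt, 2.01-fold, the latter at the limit itself. The 3 lower were Csad, 7.21-fold, Aldh7a1, 2.45-fold, and Chpt1, 2.38-fold. Just inside 2-fold lay Gnmt, lower by 1.94-fold, Mat1a, higher by 1.88-fold, and Cbs, lower by 1.88-fold. Mthfd1l, below the minimum on chow, was at 354 against 29.1 normalized counts.

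Under anti-ACBP, 0 of 33 members were higher by 2-fold or more, against 0.934% of genes, and 1, Csad, was lower, 3.09-fold, against 0.616%. Mat2a stood just inside, at 1.97-fold. The ratio lay nearer to 0 under anti-ACBP than under IgG for 27 of 33 members (81.8%) and for 72.8% of all 9098 genes, whose quartiles were -0.28 and 0.30 under IgG and -0.14 and 0.16 under anti-ACBP. The narrowing was thus not limited to these genes. As examples, the log2 ratio of MCD over chow was -0.84 under IgG and -0.019 under anti-ACBP for Pcyt2, -0.91 and 0.022 for Cbs, and -0.74 and -0.047 for Sardh. For Mat1a it was 0.91 and 0.12. Chka had 0.10 under IgG and 0.067 under anti-ACBP. These ratios share their group means with the antibody effects above and are not a separate test of them. With column totals in place of the median, 5 members were past 2-fold higher and 1 lower under IgG. That scale moves the ratio of every gene by the same amount, and the shares of all genes past 2-fold on it are not given.

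**Figure D3:**
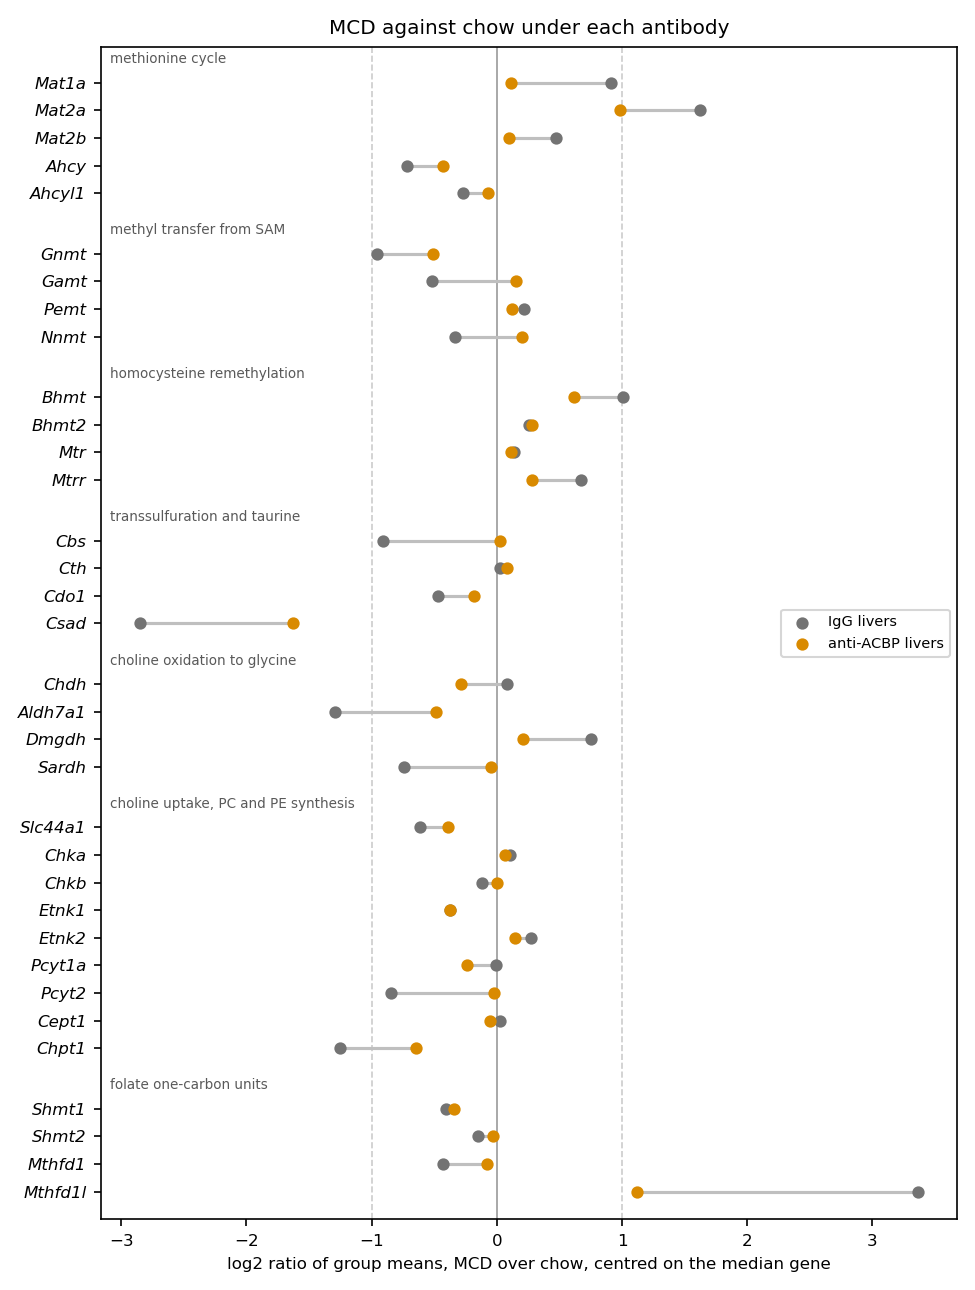
Log2 ratio of group means, MCD over chow (horizontal axis, centred on the median gene), for the 34 members in IgG livers (grey) and anti-ACBP livers (orange). Dashed lines mark a 2-fold ratio, and there are no error bars because no test was made. Csad lies below -1 under both antibodies, the points of Chka, Bhmt2, Mtr and Etnk1 nearly coincide, and Mthfd1l, at the far right, is below the CPM minimum on chow.

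The wider pathway was described by 97 related genes in 8 lists that were written together with the member list. On MCD 19 rose (19.6%) and 13 fell (13.4%) of 97 tested, and on chow 10 rose (10.8%) and 12 fell (12.9%) of 93. The shares over all genes are those given for the members. Their medians were 0.043 and 0.037.

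In folate metabolism, 4 of 19 rose and 2 fell on MCD, and 0 of 18 rose and 3 fell on chow. The mitochondrial folate carrier Slc25a32 rose on MCD, from 1250.2 to 1821 normalized counts (0.54 ± 0.16, adjusted p = 0.00382). Ftcd, of histidine breakdown, fell on chow (-0.33 ± 0.12). The proton-coupled folate carrier Slc46a1 fell on chow from 1480.4 to 1287 (-0.20 ± 0.072, adjusted p = 0.0435) and rose on MCD from 1086 to 1540 (0.50 ± 0.078, adjusted p = 2.27e-09), a difference of 0.71 ± 0.11 (adjusted p = 1.79e-09).

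In glycine and serine metabolism, 4 of 9 rose on MCD and 0 fell, and on chow 2 fell and 0 rose. Pipox, which oxidises sarcosine and pipecolic acid, rose from 1952 to 7007 on MCD, 3.59-fold (1.84 ± 0.18, adjusted p = 1.16e-21). Gldc, the decarboxylase of the glycine cleavage system, fell on chow from 5251 to 2482 (-1.08 ± 0.067, adjusted p = 5.64e-54), and Amt of the same system by 1.57-fold (-0.65 ± 0.12). Psph and Gcsh rose on MCD (0.38 ± 0.13 and 0.28 ± 0.075).

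In methionine salvage and polyamine metabolism, 3 of 14 rose and 3 fell on MCD, and 3 of 13 rose and 1 fell on chow. Smox, spermine oxidase, fell on MCD from 415 to 124 (-1.74 ± 0.27, adjusted p = 1.53e-09), and Sat1, which acetylates polyamines, by 1.49-fold (-0.57 ± 0.10). Paox, which oxidises acetylated polyamines, rose on MCD (0.80 ± 0.11) and fell on chow (-0.67 ± 0.17). Amd1, which decarboxylates S-adenosylmethionine for polyamine synthesis, and Enoph1, of methionine salvage, rose on chow (0.63 ± 0.13 and 0.55 ± 0.16), and Amd1 reads may be split with its copy Amd2.

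In cysteine, glutathione and sulfite metabolism, 1 of 12 rose and 3 fell on MCD, and 2 of 11 rose and 2 fell on chow. The cystine carrier Slc7a11 went from 116 to 19.5 on MCD (-2.56 ± 0.32), and glutathione reductase, Gsr, also fell (-0.46 ± 0.11). Gclm, the modifier of glutathione synthesis, rose on both diets (0.33 ± 0.096 and 0.47 ± 0.15). On chow the sulfur dioxygenase Ethe1 fell (-0.89 ± 0.16) and the taurine carrier Slc6a6 rose (0.64 ± 0.18).

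Among 20 other choline and phospholipid genes, 1 rose and 4 fell on MCD, led by the lysophospholipid acyltransferases Lpcat4, Lpcat1 and Lpcat2 (-1.22 ± 0.29, -1.02 ± 0.18 and -1.01 ± 0.17). On chow, 1 of 19 rose and 2 fell. They were Gde1, which hydrolyses glycerophosphodiesters (0.63 ± 0.17), the phosphocholine phosphatase Phospho1 (-0.71 ± 0.18) and Pnpla7, a lysophospholipase (-0.50 ± 0.08). Inmt, an amine methyltransferase, rose on both diets, from 6599.8 to 17915 on MCD and from 19091 to 29912 on chow, while Tpmt rose on MCD (0.51 ± 0.10) and Ahcyl2 fell on chow (-0.46 ± 0.13). In that list 3 of 8 rose and 1 fell on MCD, and 2 rose and 1 fell on chow. Of 9 cobalamin genes, Mmaa rose on MCD (0.30 ± 0.11), and on chow Mmadhc rose (0.32 ± 0.11) and Mmab fell (-0.64 ± 0.22). Of 6 amino acid carriers, Slc38a2 rose on both diets (0.68 ± 0.23 and 0.60 ± 0.14) and Slc38a4 on MCD (0.39 ± 0.088).

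**Figure D4:**
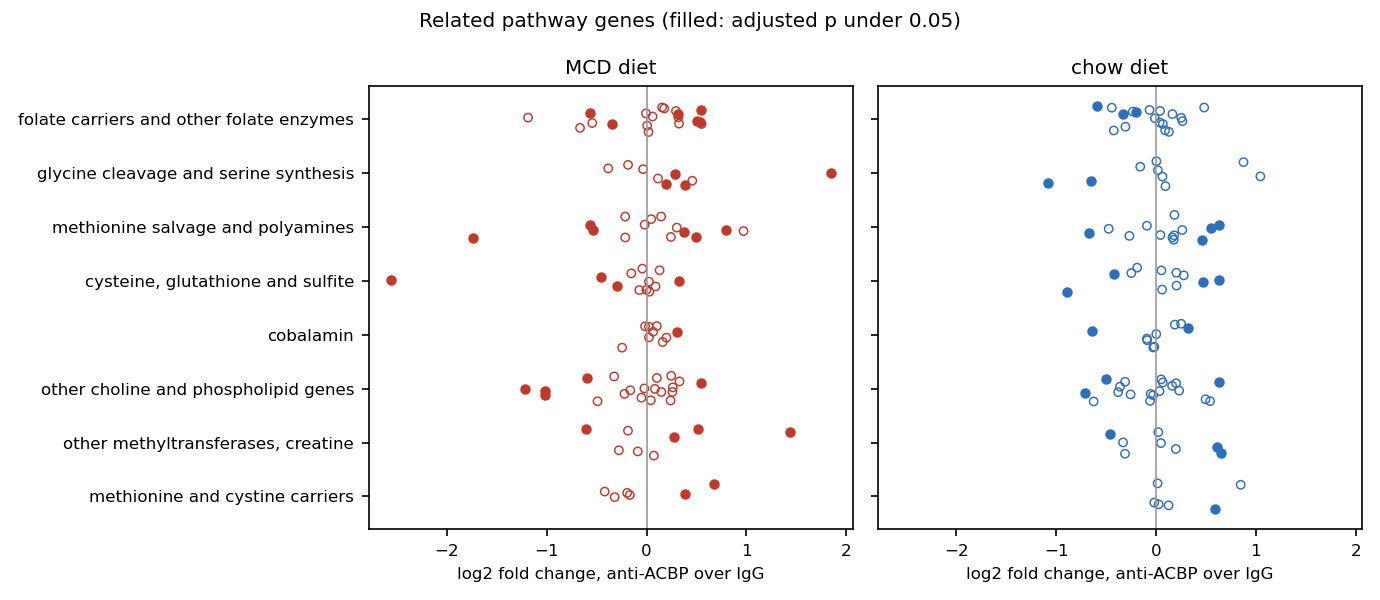
Log2 fold change of anti-ACBP over IgG (horizontal axis) for the related genes tested, 1 row per list and 1 panel per diet. Each point is a gene, spread vertically at random within its row, and filled points have an adjusted p under 0.05. Slc7a11 and Smox lie far to the left and Pipox and Inmt to the right on MCD, and Gldc lies to the left on chow.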

How the data were processed

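Liver mRNA of the 4 groups was read with strand-specific libraries, per the labels' protocols. The submitters' processing notes name HISAT2 2.2.1, HTSeq 0.13.5, DESeq2 and, as genome, mm39. The strand setting of the counting is not given in the sources used here. The authors deposited 1 table per diet, named a DESeq2 result by its title, per the file headers. Its signal columns are normalized counts, averaged per group, and its other columns are a log2 fold change with its SE, a p-value and a Benjamini-Hochberg adjusted p-value, deposited with 6 decimals.

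Genes were counted as tested at or above the lowest mean with a deposited adjusted p below 1, 2.49 (MCD) or 12.9 (chow) normalized counts. The difference between diets was divided by the root of the summed squared SEs and given a normal p, adjusted over 14607 genes. No covariate or pairing entered a test. The median SE was 0.118 on both diets at 5 CPM (counts per 1000000) or more, and intervals use the SE alone. Nothing states that samples are separate animals, so p-values measure the spread between samples, which may be technical. Lengths are unions of exons in GENCODE M21, where exons of 17 members overlap a gene on the other strand. Computation used Python 3.11.15, pandas 2.3.3 and SciPy 1.17.1. The tests were checked only on artificial fold changes drawn with the deposited SEs. That check cannot show whether those SEs or the normal distribution hold for these libraries. Alternatives were other p-value distributions, filters, scalings and thresholds.

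The members and lists were chosen with earlier results of these data known. Every member that changed on a diet or between diets is given in full, and of each related list up to 3 called genes with the largest change per diet. Some genes that this rule selects are not reported here.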

Additional observations from a re-analysis of the deposited data

Results flagged for a closer look

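The antibody effect differed between the diets for 12 members, by the test of the difference (MCD minus chow, log2 scale). It was higher on MCD for Csad (1.28 ± 0.36), Cbs (0.98 ± 0.23), Pcyt2 (0.88 ± 0.13), Aldh7a1 (0.86 ± 0.13), Sardh (0.75 ± 0.15), Gamt (0.73 ± 0.22), Chpt1 (0.66 ± 0.17) and Mthfd1 (0.40 ± 0.12). It was lower on MCD for Mthfd1l (-2.19 ± 0.68), Mat1a (-0.74 ± 0.19), Mat2a (-0.59 ± 0.17) and Mat2b (-0.32 ± 0.12). Macrophage and stellate cell markers fell, and hepatocyte markers rose, in the MCD comparison, and their part in these differences was not tested.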

How the results depend on the processing

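Bhmt and Chka kept their falls under every alternative run, except that with a t distribution on chow no gene passed. That distribution gave 3 members lower and 3865 genes in all on MCD (8 degrees of freedom, against 5 and 6261), 0 members higher, 0 lower and 0 genes on chow (6 degrees of freedom, lowest adjusted p = 0.0539, against 5, 7 and 1761), and 2241 genes between diets (against 3394). A threshold of 0.01 gave 4 members lower and 1007 genes on chow, and 2144 genes between diets. Column totals gave 10 members higher, 4 lower and 3138 genes on chow, and 5 higher, 9 lower and 5438 genes between diets. They turned the sign of 8 of 34 members on MCD, 8 on chow and 10 in the difference, none of them called with the authors' size factors. Among the 20 members called in any comparison, these were Mat2b on MCD (-0.13), Gamt, Aldh7a1 and Pcyt2 on chow (0.10, 0.027 and 0.066) and, in the difference, Bhmt2, Chka and Chkb (-0.25, -0.31 and -0.15), none of which passed with column totals. Between diets, column totals gave 5 members past 2-fold higher and 1 lower under IgG. Under anti-ACBP, column totals, no centring or the median of genes at 50 CPM gave 2 members past 2-fold, 1 of them higher. With the centring used above, Mat2a lay just inside the limit under anti-ACBP, at 1.97-fold higher, and Csad was lower by 3.09-fold. Each of these scalings moves the ratio of every gene by the same amount, and the shares of all genes past 2-fold are not given for them. A filter at a mean of 100 left 15 members called on MCD (10 higher and 5 lower), with 4790 genes in all (2568 higher and 2222 lower). It left 11 members on chow and 11 between diets, and leaves out Mthfd1l on chow. How many genes enter at this filter is not given, so these member counts have no share over all genes beside them. No paired analysis was possible because the tables hold group means, and leaving out replicates could not be run for the same reason.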

Other observations

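Of 97 related genes 3 passed in opposite directions on the diets, Slc46a1, described above, Slc6a8 and Paox. Slc6a8, the creatine carrier, fell on MCD from 912 to 597 normalized counts (-0.61 ± 0.11, adjusted p = 1.37e-06) and rose on chow from 247 to 379 (0.61 ± 0.14, adjusted p = 0.000225) in the authors' deposited tables. The difference was -1.22 ± 0.18 (adjusted p = 4.13e-10). Paox rose on MCD from 1138 to 1979 and fell on chow from 1933 to 1214, a difference of 1.47 ± 0.21 (adjusted p = 7.77e-11). They were singled out after their values were seen.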
